A study of Mus musculus with 6 samples.

Results

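The colony-stimulating factor genes of the mouse liver were followed in 3 LPS livers and 3 control livers. The members were the 6 genes whose symbol matched a listed name, of 22488 genes in each count file: the ligands Csf3 and Csf1 and the receptor genes Csf3r, Csf1r, Csf2ra and Csf2rb. LPS is bacterial lipopolysaccharide, the outer-membrane component of Gram-negative bacteria that mammalian cells detect through Toll-like receptor 4. Every mouse was a wild-type male of the C57BL/6 strain, aged 6 to 8 weeks, kept at 25 °C and fasted for 16 h. The LPS mice received LPS at 6 mg/kg into the peritoneum. The control mice received 200 µl of HBSS, a balanced salt solution, by the same route, although another label field of these samples says that they had no treatment. The hours between injection and collection of the liver are not given in the sources used here, nor is it stated that each library came from a separate mouse, so the p-values measure the spread between these libraries, which may be technical.

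Colony-stimulating factors are secreted proteins that drive the formation, survival and activation of myeloid cells. M-CSF, made from Csf1, and interleukin-34 act on the receptor tyrosine kinase encoded by Csf1r, on which tissue macrophages such as the Kupffer cells of the liver depend. G-CSF, made from Csf3, acts on Csf3r to raise the production of neutrophils and their release from the bone marrow. GM-CSF, made from Csf2, acts on a receptor of an alpha chain from Csf2ra and a beta chain from Csf2rb, and the beta chain also serves the receptors of interleukin-3 and interleukin-5.

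Total RNA of the whole organ was sequenced, and each library held between 11488525 and 20282004 counts over genes. Levels are given as CPM, which are counts scaled to a common library total, after TMM scaling, a correction for differences in RNA composition between libraries. The hepatocyte gene Alb stood at 54400 ± 10900 CPM in LPS livers and 79300 ± 8490 CPM in control livers (SD, n = 3 each). Rank correlations of log2 CPM across genes ranged from 0.982 to 0.989 between libraries of the same group and from 0.835 to 0.844 between libraries of different groups. Most genes differed between the groups: 7528 of 12078 tested genes (62.3%) passed an adjusted p of 0.05 in edgeR's quasi-likelihood test, 3781 (31.3%) of them higher and 3747 (31.0%) lower in LPS livers. In 8142 tested genes (67.4%) no LPS library overlapped a control library.

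All 6 members were tested. Csf3, Csf1 and Csf3r rose in LPS livers, Csf1r and Csf2rb fell, and Csf2ra did not pass the test. That 5 of 6 were called stands beside the 62.3% of all tested genes, so the number of calls is by itself no result about these genes. The members differed from each other in direction and in size: the 2 ligand genes rose, and the receptor genes went both ways.

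**Figure D1:**
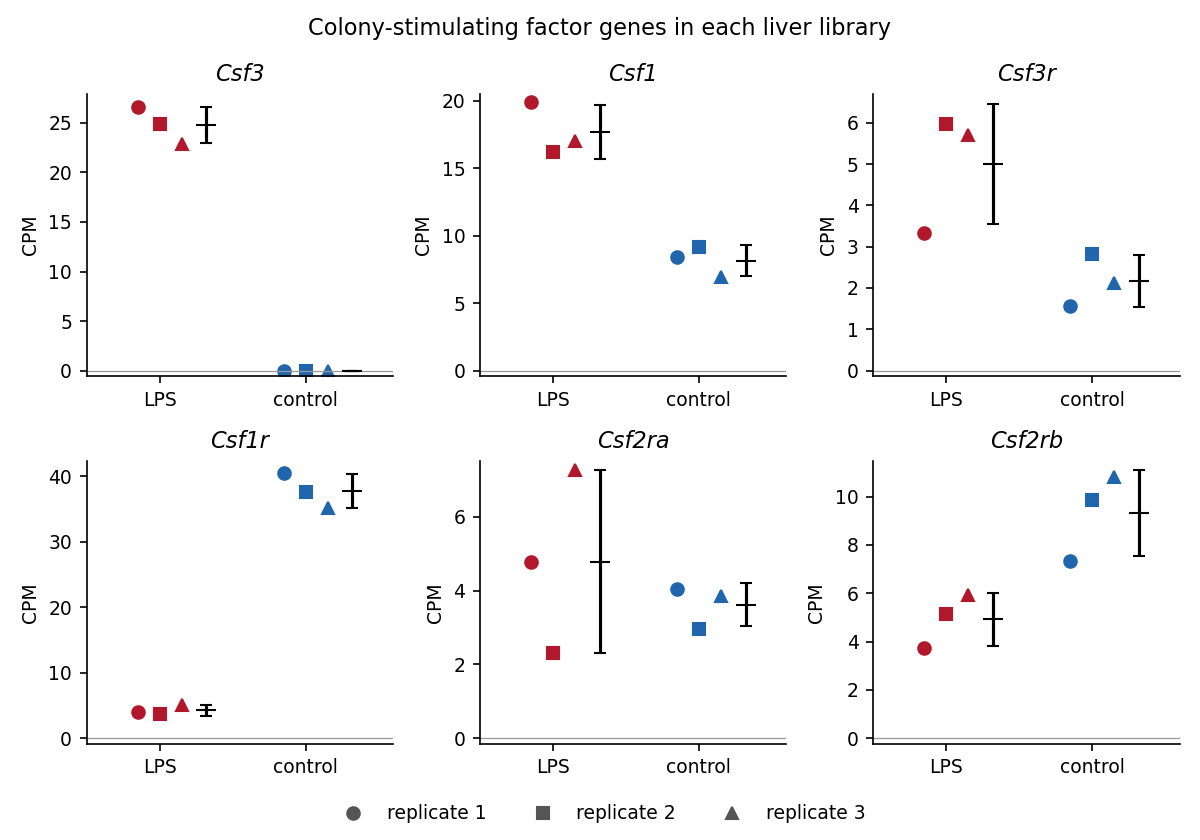
CPM of the 6 member genes in each library, with 3 LPS libraries left of 3 control libraries in every panel and each panel on its own vertical axis from 0. Points are libraries, the horizontal tick is the group mean and the bar is 1 SD; Csf2ra is the panel in which the groups overlap.

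Csf3, which encodes G-CSF, was counted in LPS livers alone: it had 26.6, 24.9 and 22.9 CPM in the 3 LPS livers, from 312, 355 and 322 counts, against no count in any of the 3 control livers. The LPS libraries lay close together, with a coefficient of variation of 7.36%. Set against a floor of 3 counts over the whole control group, which is 0.0612 CPM, the LPS level was at least 406-fold higher. The adjusted p in edgeR's quasi-likelihood test was 1.249e-09. With no control count, Csf3 passed the filter on low counts through the LPS libraries alone. It was also listed with its near absence from control livers known, so that p is no separate support for the rise. Because small counts in these files were mostly even numbers, as described under the processing, the floor was also set at 6 counts, and the level was then at least 203-fold higher.

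Csf3 lies on the plus strand of chromosome 11 at 98701263 to 98703629 (GRCm38, GENCODE M21) and overlaps no other annotated gene. Transcripts of many cytokines carry copies of ATTTA in the 3′ UTR, a pentamer bound by proteins that shorten the life of the transcript. The 3′ UTR of Csf3 held 6 copies in 669 bases, a density of 8.97 per kb, and 1.36% of 19466 genes with a 3′ UTR of at least 100 bases were as dense or denser. Csf1 held 4 copies in 2111 bases, or 1.89 per kb, a density that 39% of genes reached. The receptor genes Csf3r, Csf2ra and Csf2rb held none, and Csf1r held 3 in 1669 bases. A high density was not particular to Csf3 among the ligand genes. Csf2 had 28.4 per kb, Il3 9.9 per kb from 1 copy, and Il5 6.41 per kb, and these genes had too few counts to be tested. Il34 had 2.28 per kb. The search was chosen after the members' values had been seen and says only which letters are there. The 30-base stretch with the most copies in Csf3 and in Csf1 is shown to let the spacing be compared, with ATTTA in capitals.
Csf3: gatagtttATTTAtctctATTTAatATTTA
Csf1: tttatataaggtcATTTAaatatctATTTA
In the Csf3 stretch the 3 copies follow each other within a few bases, and the Csf1 stretch holds 2.

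Csf1, which encodes M-CSF, was detected in both groups and rose in LPS livers. It had 19.9, 16.2 and 17.0 CPM in LPS livers, against 8.41, 9.14 and 6.92 CPM in control livers. The lowest LPS library stood well above the highest control library. The means were 17.7 ± 1.99 CPM in LPS livers and 8.16 ± 1.13 CPM in control livers (SD, n = 3 each), a log2 fold change of 1.11 with a standard error of 0.18, or 2.16-fold (edgeR adjusted p = 0.0001247). The 95% interval of the log2 fold change ran from 0.72 to 1.5. Csf1 lies on the minus strand of chromosome 3 at 107741048 to 107760469. Both ligand genes rose, and over the 3 control libraries Csf1 had 404 counts and Csf3 had 0.

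Promoter windows from 250 bases before to 50 bases after the start were at hand for Csf1, Csf3r and Csf2ra, 3 of the 6 members, from RefSeq (GRCm38.p6). Each was searched on both strands for short runs of letters known from binding sites. For NF-kB these were GGG and CC with 5 bases of any kind between them. For the C/EBP factors they were TTNNGNAA, where N is any base. For PU.1, an ETS family factor, they were GAGGAA. For AP-1 they were TGANTCA, and for the STAT factors TTCNNNGAA. The NF-kB letters occurred 5 times in the window of Csf1, the last of them after the start. A match or more was found in 50.8% of all 32851 windows, and how many windows held 5 was not counted. No C/EBP, PU.1, AP-1 or STAT letters were in it. The 250 bases before the start of Csf1, chr3:107760470-107760719 on the minus strand, are shown because Csf1 is the ligand gene whose window was at hand, with every NF-kB match in capitals; of the 4 matches, 2 overlap each other.
Csf1: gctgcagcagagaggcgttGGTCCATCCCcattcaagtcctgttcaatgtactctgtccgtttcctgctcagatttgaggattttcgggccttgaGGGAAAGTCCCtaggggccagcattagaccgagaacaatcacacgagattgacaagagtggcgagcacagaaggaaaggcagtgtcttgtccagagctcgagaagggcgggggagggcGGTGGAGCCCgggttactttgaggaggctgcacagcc
A match is a description of letters and not a measured binding site.

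Of the other ligands of these receptors, Il34 could be tested and Csf2, Il3 and Il5 had 2 counts or fewer over all libraries. Csf2, which encodes GM-CSF, had no count in any of the 6 libraries. A floor of 3 counts over a group allows up to 0.075 CPM in LPS livers and 0.0612 CPM in control livers. If the level were the same in both groups, 3 counts over all 6 libraries would allow up to 0.0337 CPM, or 0.0674 CPM at the doubled floor of 6 counts. The doubled floor would raise the group limits too. Il34, the other ligand of the Csf1r protein, had 1.36, 3.02 and 3.56 CPM in LPS livers, against 0.935, 0.875 and 2.44 CPM in control livers. The groups overlapped through control replicate 3, and the log2 fold change was 0.92 with a standard error of 0.51 (95% interval -0.17 to 2.00, edgeR adjusted p = 0.1304). Without that library the value was 1.53 with an adjusted p of 0.03341. Leaving out any other single library did not make Il34 pass. The values then ran from 0.61 without control replicate 2 (adjusted p = 0.3643) to 1.19 without LPS replicate 1 (adjusted p = 0.05957). Il3 had 2 counts in LPS replicate 2 and none elsewhere, and Il5 had 2 counts in control replicate 2 and none elsewhere. Ptprz1, which encodes a further receptor of interleukin-34, had 4 counts over the LPS group and 2 over the control group. Those 4 genes, Csf2, Il3, Il5 and Ptprz1, did not pass the filter on low counts and were not tested.

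Csf3r, the G-CSF receptor gene of neutrophils and their precursors, rose by less than its ligand. It had 3.32, 5.97 and 5.70 CPM in LPS livers, against 1.56, 2.82 and 2.11 CPM in control livers. The groups did not overlap, but the lowest LPS library and the highest control library were close. The means were 5.0 ± 1.46 CPM in LPS livers and 2.16 ± 0.632 CPM in control livers (SD, n = 3 each), a log2 fold change of 1.19 with a standard error of 0.35 (95% interval 0.45 to 1.93) and an edgeR adjusted p of 0.008335. The counts behind these values ran from 39 to 85 in LPS libraries and from 20 to 58 in control libraries. Csf3r lies on the plus strand of chromosome 4 at 126024550 to 126044440. Of the 50-base stretches of its transcripts, 11.2% also occur in transcripts of other genes, and of the 100-base stretches 0.414%, and the sources used here do not say how such reads were counted.

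The promoter window of Csf3r held 1 match to the PU.1 letters GAGGAA, which 28.3% of all windows hold, and 3 matches to the NF-kB letters. No C/EBP, AP-1 or STAT letters were in it. PU.1, encoded by Spi1, is a transcription factor on which myeloid cells depend. Spi1 had 13 ± 3.05 CPM in LPS livers and 4.32 ± 0.426 CPM in control livers (log2 fold change 1.59, standard error 0.23, edgeR adjusted p = 4.008e-05). Spi1 was named after its value was seen, and any part of PU.1 in the rise of Csf3r was not tested. The 250 bases before 1 RefSeq transcript start, chr4:126024409-126024658 on the plus strand, are shown with the PU.1 match in capitals. They are counted from the RefSeq transcript start at base 126024659, which lies downstream of the GENCODE gene start given above, so the PU.1 match falls inside the gene as GENCODE places it. RefSeq starts the gene itself further upstream, at 126023441, so the whole stretch lies inside the gene as RefSeq places it. The stretch is shown because Csf3r is the receptor gene that rose among the 6 members.
Csf3r: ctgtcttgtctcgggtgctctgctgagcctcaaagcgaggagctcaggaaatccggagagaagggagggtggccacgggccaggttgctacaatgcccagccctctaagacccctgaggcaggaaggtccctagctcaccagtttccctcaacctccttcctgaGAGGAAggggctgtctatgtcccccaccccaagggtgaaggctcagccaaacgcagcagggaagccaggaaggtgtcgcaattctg
The window of Csf2ra held 2 matches to the NF-kB letters, 1 to the C/EBP letters and 2 to the PU.1 letters.

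Neutrophil markers moved with Csf3r and by far more. Their sum over 20 genes ran from 261 to 324 CPM in LPS livers, against 8.01 to 9.97 CPM in control livers. Of the 16 markers tested, 15 rose, none fell and 1 (Prtn3, log2 fold change 1.34, edgeR adjusted p = 0.1560) was not called. Over all tested genes 31.3% rose. Genes near 0 in control livers, such as Ngp, passed the filter on low counts through the LPS livers alone and could hardly be called as falling. The tally is thus no support by itself, and the same limit holds for such genes in the lists below. In those lists, genes near 0 in LPS livers passed the filter through the control livers and could hardly be called as rising. Ngp, a protein of neutrophil secondary granules, had 45.3 ± 2.4 CPM in LPS livers and 0.159 ± 0.0333 CPM in control livers, and S100a9, a calcium-binding protein abundant in neutrophils, had 99.6 ± 10.2 CPM in LPS livers and 1.22 ± 0.665 CPM in control livers. Csf3r per unit of that sum was 0.0111, 0.0184 and 0.0218 in LPS livers, against 0.185, 0.283 and 0.264 in control livers. The markers' part in the rise of Csf3r was not tested. In RNA of a whole organ, more or fewer cells of a type and more or less RNA per cell cannot be told apart, here and for every gene below.

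Csf1r, the M-CSF receptor gene of macrophages and monocytes, showed the largest fall among the members and moved against its ligand. It had 3.92, 3.65 and 5.13 CPM in LPS livers, against 40.5, 37.6 and 35.2 CPM in control livers. Every LPS library was far below every control library, with 46 to 72 counts in LPS libraries and 520 to 774 in control libraries. The means were 4.23 ± 0.786 CPM in LPS livers and 37.8 ± 2.64 CPM in control livers (SD, n = 3 each), a log2 fold change of -3.15 with a standard error of 0.17 (95% interval -3.52 to -2.78), which is 8.89-fold lower in LPS livers (edgeR adjusted p = 3.105e-09). Falls of this size or more were found in 236 of the 12078 tested genes (1.95%), Csf1r included.

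Csf1r lies on the plus strand of chromosome 18 at 61100598 to 61132149 and overlaps Hmgxb3, a gene on the minus strand. They share 873 of the 4885 exon bases of Csf1r (17.9%), and without a stated strand setting the reads of that stretch cannot be told apart. Hmgxb3 had 5.91 ± 2.23 CPM in LPS livers and 8.81 ± 0.65 CPM in control livers (log2 fold change -0.57, standard error 0.26, edgeR adjusted p = 0.0727).

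Markers of Kupffer cells, the resident macrophages of the liver, fell beside Csf1r. Of the 10 tested, 8 fell, 1 rose and 1 (Spic, log2 fold change 0.65, edgeR adjusted p = 0.2200) was not called. The median log2 fold change was -2.35. Over all tested genes 31.0% fell and 31.3% rose. Cd5l, a secreted protein of Kupffer cells, had 8.4 ± 0.975 CPM in LPS livers and 80.3 ± 5.25 CPM in control livers. Slc40a1, the iron exporter ferroportin, had 4.12 ± 2.09 CPM in LPS livers and 109 ± 22.4 CPM in control livers. The marker that rose was Marco, a scavenger receptor, with 31.7 ± 6.29 CPM in LPS livers and 13.5 ± 6.85 CPM in control livers (log2 fold change 1.23, standard error 0.27, edgeR adjusted p = 0.001226), and it was named after its value was seen.

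The sum of the 11 Kupffer cell markers ran from 278 to 317 CPM in LPS livers, against 627 to 703 CPM in control livers. Csf1r per unit of that sum was 0.0141, 0.0122 and 0.0162 in LPS livers, against 0.0604, 0.0535 and 0.0563 in control livers, without overlap. The marker with the highest CPM was C6, a complement component, with 230 ± 5.61 CPM in LPS livers and 329 ± 13.1 CPM in control livers. Without C6, a step chosen after the values were seen, the sum ran from 53.5 to 86.1 CPM in LPS livers, against 310 to 376 CPM in control livers. Csf1r per unit of the sum without C6 was 0.0732, 0.0562 and 0.0596 in LPS livers, against 0.123, 0.1 and 0.114 in control livers. Those ratios did not overlap, but this rests on Marco, the marker that rose. With Marco left out too, also after the values were seen, the sum of the other 9 markers ran from 27.4 to 47.5 CPM in LPS livers, against 289 to 365 CPM in control livers. Csf1r per unit of that sum was 0.143, 0.106 and 0.108 in LPS livers, against 0.127, 0.103 and 0.122 in control livers, and the groups overlapped.

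Against single macrophage genes the picture depended on the gene. Csf1r per unit of Adgre1, which encodes the macrophage surface protein F4/80, was 2.56, 1.93 and 1.57 in LPS livers, against 3.88, 3.46 and 3.48 in control livers. Per unit of Clec4f, a lectin of Kupffer cells, it was 0.418, 0.294 and 0.205 in LPS livers, against 0.438, 0.413 and 0.439 in control livers, and LPS replicate 1 lay just above control replicate 2. Per unit of Cd68, a lysosomal protein of macrophages that did not pass the test itself (6.25 ± 1.19 CPM in LPS livers and 5.41 ± 1.12 CPM in control livers), it was 0.682 ± 0.0811 in LPS livers and 7.13 ± 1.08 in control livers (SD, n = 3 each). These ratios are descriptions, and the part of the Kupffer cell markers in the fall of Csf1r was not tested.

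Markers of monocytes and recruited macrophages went both ways. Of the 9 tested, 5 rose, 1 fell and 3 were not called, beside 31.3% higher and 31.0% lower over all tested genes. Among the risers, Ly6c2, Chil3 and Ms4a4c were near 0 in control livers and passed the filter on low counts through the LPS livers alone. They could hardly be called as falling. Their sum over 12 genes ran from 72.6 to 90.5 CPM in LPS livers, against 49.9 to 63 CPM in control livers. Csf1r per unit of that sum was 0.054, 0.0406 and 0.0567 in LPS livers, against 0.813, 0.598 and 0.608 in control livers, without overlap. Chil3, a secreted chitinase-like protein, had 24.5 ± 7.05 CPM in LPS livers and 0.309 ± 0.179 CPM in control livers. Lyz2, the lysozyme gene of myeloid cells, was the faller, with 9.75 ± 2.58 CPM in LPS livers and 41.6 ± 5.31 CPM in control livers.

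**Figure D2:**
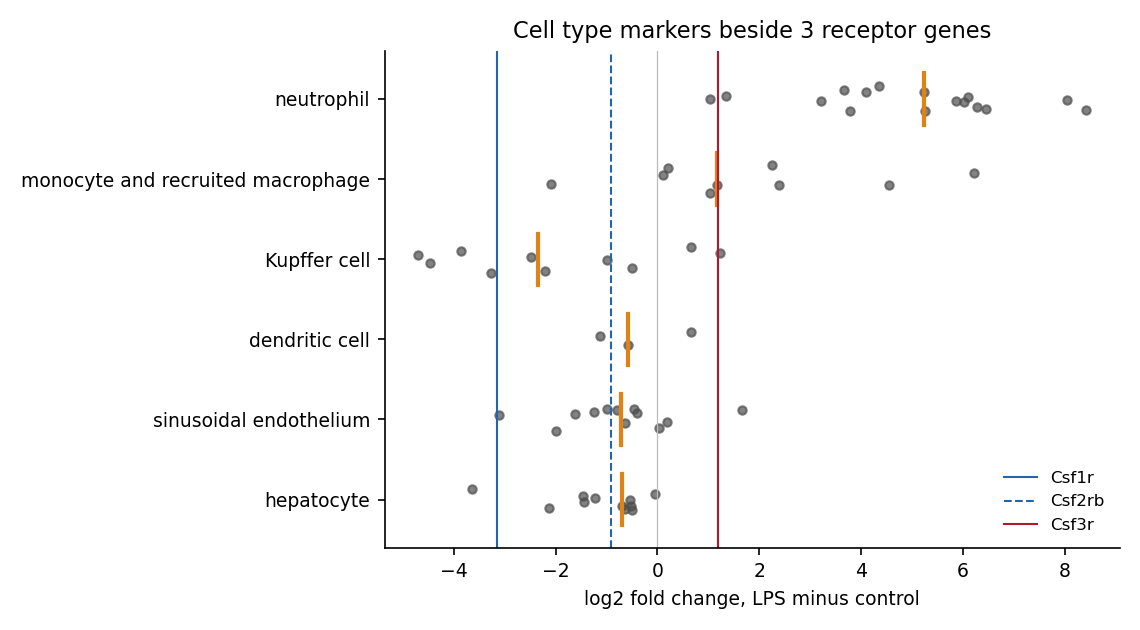
Log2 fold change (LPS minus control, horizontal axis) of each tested marker gene of 6 cell types, as grey points with the list's median as an orange bar; vertical lines give Csf1r (-3.15), Csf2rb (-0.92) and Csf3r (1.19). The neutrophil markers, with a median of 5.24, lie mostly to the right of Csf3r, and 4 Kupffer cell markers lie to the left of Csf1r.

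Of the GM-CSF receptor genes, Csf2rb, the beta chain gene, fell: it had 3.75, 5.13 and 5.91 CPM in LPS livers, against 7.32, 9.87 and 10.8 CPM in control livers. All LPS libraries were below all control libraries. The means were 4.93 ± 1.10 CPM in LPS livers and 9.32 ± 1.79 CPM in control livers (SD, n = 3 each), a log2 fold change of -0.92 with a standard error of 0.25 (95% interval -1.45 to -0.38), which is 1.89-fold lower in LPS livers (edgeR adjusted p = 0.005670).

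Csf2rb lies on the plus strand of chromosome 15 at 78325752 to 78353847, next to Csf2rb2 on the minus strand at 78282507 to 78305721. Csf2rb2 is a mouse gene for another beta chain that serves the interleukin-3 receptor. Their coding sequences are 2688 bases in Csf2rb and 2634 bases in Csf2rb2, and 2503 of 2628 aligned bases (95.2%) are identical, with 242 bases in the longest identical run. Of the 50-base stretches of Csf2rb transcripts, 18.4% also occur in other genes, and of the 100-base stretches 6.96%, all of them in Csf2rb2, so reads there could be assigned to another gene. Among 60-base stretches of the aligned coding sequences without a gap, one with the most differences is shown, with the 13 differing bases in capitals. It covers bases 304 to 363 of Csf2rb and 307 to 366 of Csf2rb2. Stretches with gaps and sequence outside the coding part were not searched.
Csf2rb: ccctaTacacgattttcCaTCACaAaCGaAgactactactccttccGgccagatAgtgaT
Csf2rb2: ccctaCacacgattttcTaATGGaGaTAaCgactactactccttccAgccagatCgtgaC

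Csf2rb2 had 2.22, 1.55 and 3.13 CPM in LPS livers, against 1.56, 1.26 and 1.92 CPM in control livers. The groups overlapped, and its log2 fold change was 0.54 with a standard error of 0.42 (95% interval -0.36 to 1.45, edgeR adjusted p = 0.2757). With the counts of Csf2rb and Csf2rb2 summed in each library, which no misassignment between them can alter, the log2 fold change was -0.59 with a standard error of 0.23 (edgeR adjusted p = 0.03473). Csf2rb per unit of Csf2rb2 was 1.69, 3.32 and 1.89 in LPS livers, against 4.7, 7.81 and 5.6 in control livers.

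Csf2ra, the alpha chain gene that binds GM-CSF, did not pass the test. It had 4.77, 2.32 and 7.27 CPM in LPS livers, against 4.05, 2.97 and 3.85 CPM in control livers. The LPS libraries lay on both sides of the control libraries, with a coefficient of variation of 51.7%. The log2 fold change was 0.41 with a standard error of 0.37 (edgeR adjusted p = 0.3536), and its 95% interval from -0.39 to 1.21 covers a fall as well as a rise of more than the size seen for Csf1. Without LPS replicate 3 the value was -0.02 (adjusted p = 0.9608), and without LPS replicate 2 it was 0.75 (adjusted p = 0.05571). Csf2ra per unit of Csf2rb was 1.27, 0.452 and 1.23 in LPS livers, against 0.553, 0.3 and 0.357 in control livers, with overlap, and the difference between the 2 fold changes was not tested. Csf2ra lies on the minus strand of chromosome 19 at 61223957 to 61228429.

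Of the other chains that pair with the beta chain, Il3ra, which binds interleukin-3, rose. It had 6.14, 9.06 and 5.77 CPM in LPS livers, against 3.12, 2.63 and 3.59 CPM in control livers, with no overlap (log2 fold change 1.17, standard error 0.28, edgeR adjusted p = 0.002495). Il5ra, which binds interleukin-5, had 4 counts in control replicate 2 and none in the other libraries. Of the 8 ligands and receptors that complete the system, 3 were tested: 1 rose, none fell and 2 (Il34 and Csf2rb2) were not called. Eosinophils, basophils and mast cells, which use the interleukin-5 and interleukin-3 receptors, left little trace: none of their 9 markers was tested, Epx, Ccr3 and Fcer1a had no count in any library, and the sum was at most 0.511 CPM in LPS livers and 0.583 CPM in control livers. Dendritic cell markers summed to 8.27 to 9.56 CPM in LPS livers, against 12.2 to 15.1 CPM in control livers, and of the 3 tested 2 fell, among them Clec9a, a lectin of cross-presenting dendritic cells (1.38 ± 0.634 CPM in LPS livers and 3.02 ± 0.279 CPM in control livers). Their part in the fall of Csf2rb was not tested.

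**Figure D3:**
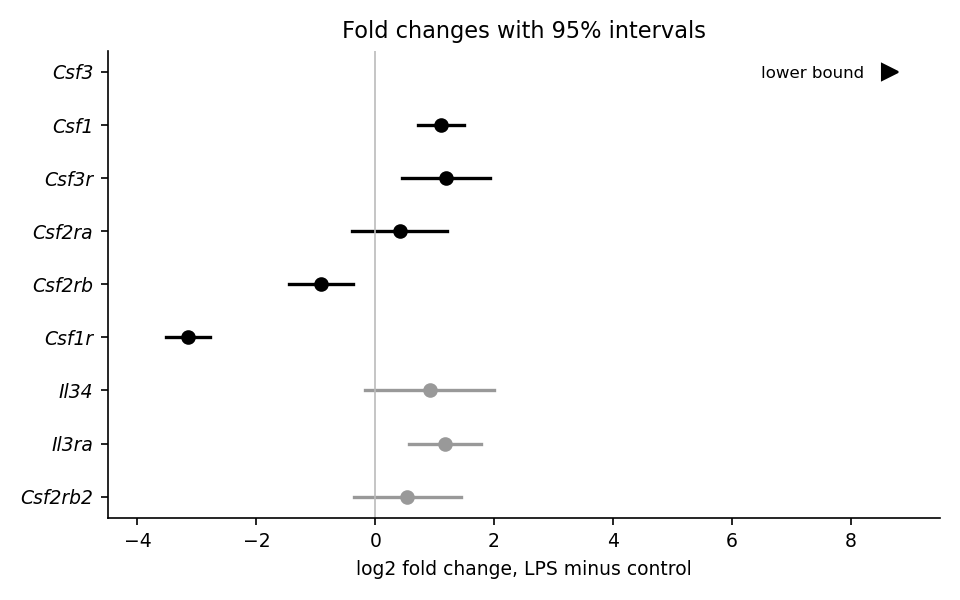
Log2 fold change (LPS minus control, horizontal axis) with its 95% interval for the 6 members in black and 3 tested partner genes in grey. Csf3 is drawn as an arrowhead at its lower bound of 8.66 because no control library had a count; Csf1 and Csf3r lie right of 0, Csf2rb and Csf1r left of it, and the interval of Csf2ra includes 0.

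Levels can be set side by side between genes only per length, here as CPM per kb of exon. In LPS livers Csf3 was highest with 17.6 ± 1.29 CPM per kb, followed by Csf1 with 3.75 ± 0.422, Csf2ra with 2.57 ± 1.33, Csf3r with 1.43 ± 0.416, Csf2rb with 0.943 ± 0.209 and Csf1r with 0.867 ± 0.161 CPM per kb. In control livers Csf1r was highest with 7.74 ± 0.54 CPM per kb, followed by Csf2ra with 1.95 ± 0.31, Csf2rb with 1.78 ± 0.342, Csf1 with 1.73 ± 0.24, Csf3r with 0.617 ± 0.18 and Csf3 with 0 (SD, n = 3 in each group). Csf1r thus held the highest level of the 6 in control livers and the lowest mean in LPS livers. Several neighbours lay within their spread and have no order. In LPS livers the libraries of each gene from Csf1 downward overlapped those of the next, and in control livers the same held from Csf2ra to Csf1. The level per kb of Csf1 over that of Csf1r was 5.26, 4.58 and 3.42 in LPS livers, against 0.215, 0.251 and 0.203 in control livers, so ligand transcript exceeded receptor transcript in every LPS library and in no control library.

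**Figure D4:**
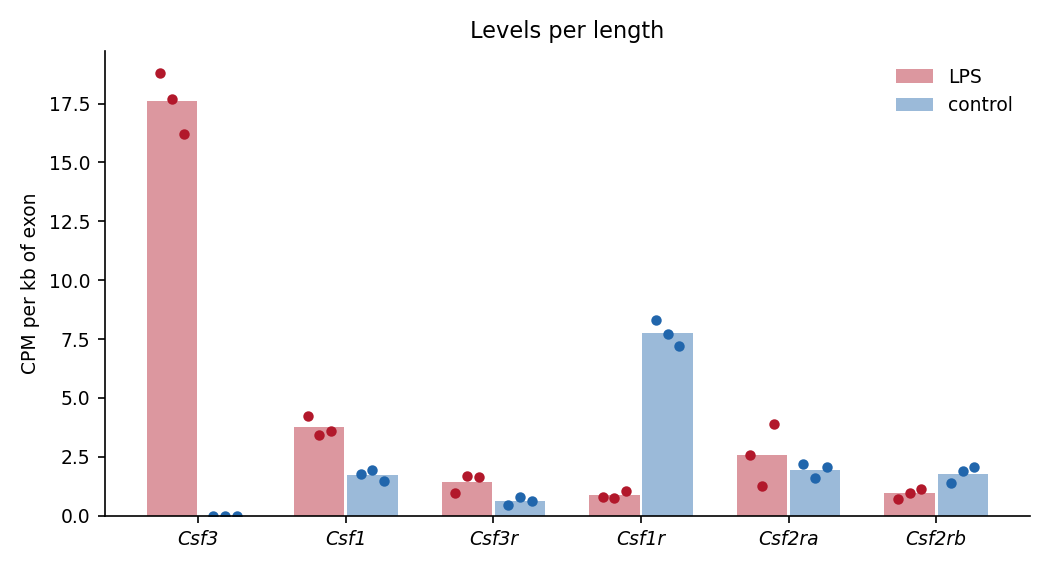
CPM per kb of exon (vertical axis, from 0) of the 6 members, with LPS livers left of control livers; bars are means over 3 libraries and points are libraries. Csf3 is the tallest bar in LPS livers at 17.6 CPM per kb and Csf1r the tallest in control livers at 7.74 CPM per kb.

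For each member the 2 tested genes with the nearest profile were found from log2 CPM in the 6 libraries, each centred on its own mean, by root mean square distance. Csf3 lay nearest to Ngp at a distance of 0.18 and to Slpi at 0.19, a secreted protease inhibitor with 157 ± 20.7 CPM in LPS livers and 0.909 ± 0.124 CPM in control livers. Because Csf3 had no count in control livers, its profile there is set by the prior count of 2, and so are its distances and its nearest genes. Csf1 lay nearest to Txn1 at 0.07 and Tmem192 at 0.08, and Csf3r to Tspyl5 at 0.10 and Recql4 at 0.12. Csf1r lay nearest to Ddc at 0.06 and Acsm3 at 0.08, whose log2 fold changes were -3.08 and -3.12. Acsm3, a medium-chain acyl-CoA synthetase, had 5.94 ± 1.07 CPM in LPS livers and 51.9 ± 1.37 CPM in control livers. Csf2ra lay nearest to Tstd1 at 0.13 and Kcnh7 at 0.16, and Csf2rb to Cacybp at 0.10 and Zfp953 at 0.11. With 6 libraries in 2 groups, these distances mostly reflect a like difference between the groups.

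Among 34 genes that carry or dampen the signal of these receptors, 33 were tested: 12 rose, 7 fell and 14 were not called. The median log2 fold change was 0.32, beside 0.01 over all 12078 tested genes. Of all tested genes 31.3% rose and 31.0% fell, so the number of calls is by itself no result about this list. The highest risers of the list were 2 feedback inhibitors, Socs1 and Socs3. Socs1, an inhibitor of JAK kinases, had 105 ± 3.16 CPM in LPS livers and 0.592 ± 0.339 CPM in control livers, a log2 fold change of 7.50 with a standard error of 0.23 (edgeR adjusted p = 2.526e-11). Socs3, which binds the G-CSF receptor and limits its signal, had 157 ± 31.8 CPM in LPS livers and 8.04 ± 2.30 CPM in control livers, a log2 fold change of 4.29 with a standard error of 0.21 (adjusted p = 1.163e-09). Stat3, the transcription factor activated by G-CSF, was the gene of the list with the highest CPM and rose to 494 ± 35.3 CPM in LPS livers, against 121 ± 11.6 CPM in control livers (log2 fold change 2.03, adjusted p = 1.530e-08).

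The following genes of that list were picked after their values were seen, to show both directions. Cish, a further feedback inhibitor, rose (log2 fold change 1.5, edgeR adjusted p = 0.0001944), as did Gab2, a docking protein of cytokine receptors (2.48, adjusted p = 1.200e-06), and Cblb, a ubiquitin ligase (1.40, adjusted p = 2.394e-06). Stat5b, a transcription factor used by GM-CSF and interleukin-3, fell (-0.78, adjusted p = 5.618e-05), while Stat5a had -0.40 and was not called (adjusted p = 0.1078). Tyrobp, the adaptor DAP12 of macrophages, fell (-0.73, adjusted p = 0.009515), as did Ptpn6, the phosphatase SHP-1 (-0.53, adjusted p = 0.007493). Jak2, the kinase bound to the GM-CSF receptor, had -0.08 and was not called (adjusted p = 0.6942).

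Of 17 transcription factors of myeloid cells, 14 were tested: 8 rose, 4 fell and 2 were not called, with a median log2 fold change of 0.94. These counts stand beside 31.3% higher and 31.0% lower over all tested genes. Runx1, needed for blood cell formation, had 32.1 ± 6.81 CPM in LPS livers and 0.477 ± 0.287 CPM in control livers (log2 fold change 6.12, edgeR adjusted p = 2.329e-09). Cebpd, an acute-phase factor, had 61 ± 5.04 CPM in LPS livers and 15.1 ± 2.55 CPM in control livers (2.02, adjusted p = 4.679e-08). Cebpa, which is also a main factor of hepatocytes, fell to 124 ± 20.2 CPM in LPS livers, against 341 ± 17.5 CPM in control livers (-1.46, adjusted p = 7.533e-07). Without LPS replicate 3 or control replicate 2, 2 of the tested factors fell in place of 4.

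Of 17 genes of neutrophil production and release, 14 were tested: 12 rose, 1 fell and 1 was not called, with a median log2 fold change of 3.03. Over all tested genes 31.3% rose and 31.0% fell. Cxcl2, Cxcl5, Sele and Cxcr2 were near 0 in control livers and passed the filter on low counts through the LPS livers alone. They could hardly be called as falling. Cxcl1, a neutrophil-attracting chemokine, had 192 ± 22.4 CPM in LPS livers and 1.04 ± 0.453 CPM in control livers (log2 fold change 7.58, edgeR adjusted p = 2.205e-11). Zc3h12a, an RNase that degrades cytokine transcripts, had 39.3 ± 5.31 CPM in LPS livers and 3.04 ± 0.838 CPM in control livers (3.68, adjusted p = 4.265e-09). The faller was Cxcl12, the chemokine that retains neutrophils in the bone marrow, with 51.1 ± 6.6 CPM in LPS livers and 213 ± 3.49 CPM in control livers (-2.06, adjusted p = 1.274e-08). Cxcr2, a receptor of Cxcl1, stands in this list and among the neutrophil markers.

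Other growth factors of blood cells and their receptors went both ways. Of 22 genes, 15 were tested: 3 rose, 7 fell and 5 were not called, with a median log2 fold change of -0.08. These counts stand beside 31.3% higher and 31.0% lower over all tested genes. The risers were Osmr, Osm and Thpo. Osmr, the oncostatin M receptor, had 32.3 ± 5.42 CPM in LPS livers and 5.38 ± 0.472 CPM in control livers (2.59, edgeR adjusted p = 2.589e-08), and Thpo, the platelet growth factor made by the liver, had 30.6 ± 6.58 CPM in LPS livers and 14.3 ± 1.01 CPM in control livers (1.10, adjusted p = 7.688e-05). Among the fallers was Flt3l, the growth factor of dendritic cells, with 0.345 ± 0.31 CPM in LPS livers and 3.96 ± 0.341 CPM in control livers (-3.55, adjusted p = 6.879e-05). Flt3l and Epor, another faller, were near 0 in LPS livers and passed the filter on low counts through the control livers. Both could hardly be called as rising, which limits the count of fallers. Vegfa, the endothelial growth factor, had 43 ± 5.62 CPM in LPS livers and 81.8 ± 5.0 CPM in control livers (-0.93, adjusted p = 2.969e-05). Il6st, the shared receptor chain gp130, had 153 ± 26.3 CPM in LPS livers and 121 ± 9.52 CPM in control livers and was not called (0.34, adjusted p = 0.05068). Osm, Thpo, Flt3l and Epor were picked after their values were seen, and 5 genes rose when the filter on low counts was left out or limma was used.

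Marker lists of the other cell types differed in how many genes were called. The counts stand beside 31.3% higher and 31.0% lower over all tested genes. Of 12 sinusoidal endothelial markers, 9 fell, 1 rose and 2 were not called, and their sum ran from 276 to 472 CPM in LPS livers, against 505 to 543 CPM in control livers. Of 11 hepatocyte markers, 10 fell, none rose and 1 was not called, with sums of 71700 to 97900 CPM in LPS livers, against 123000 to 135000 CPM in control livers. Of 12 stellate cell markers, 7 fell, 1 rose and 4 were not called. Of 6 biliary markers tested, 4 rose, 1 fell and 1 was not called, with sums of 137 to 156 CPM in LPS livers, against 34.7 to 43.8 CPM in control livers. T, NK and B cell markers summed to 12.6 to 14.3 CPM in LPS livers and 12.9 to 14 CPM in control livers, and of 8 tested 1 rose, 2 fell and 5 were not called. Red blood cell genes summed to 342 to 474 CPM in LPS livers and 296 to 412 CPM in control livers, with 3 of 6 higher, 1 lower and 2 not called. The part of these cells in the values of the 6 members was not tested.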

How the data were processed

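Per the labels' protocols, total RNA of whole liver was extracted with Trizol; the submitters' processing notes name bcl2fastq 2.0, HISAT2, StringTie, DESeq2, limma and the mm10 build, with no role given. The authors deposited raw counts per gene, 1 file per library (22488 genes, fixed-width columns that cut long symbols; 20722 genes were named by Entrez identifier). What was counted is not given in the sources used here: of values from 1 to 20, 89.1% to 90.8% were even, against 51.2% to 52.3% of values from 200 to 2000, as would arise if both reads of a pair were counted. The effective depth of low genes may then be lower than the counts say.

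From these counts, genes were compared in R 4.3.3 with edgeR 4.0.16 (TMM, filterByExpr with a minimum count of 10 and minimum total of 15, quasi-likelihood F test, 2-sided, Benjamini-Hochberg over 12078 genes, threshold 0.05), with no batch term, since the labels give none. Tests were checked on simulated counts with 200 changed genes. That is a far smaller share than the 62.3% called here, so the check does not cover the setting of these data. Alternatives were DESeq2 1.42.0, limma 3.58.1 on log2 CPM (prior count 2), other scalings, no filter, a replicate block, halved counts, Csf2rb summed with Csf2rb2, and leaving out each library. The floor for a count of 0 was 3 counts and covers counting error only. Each library counted as 1 replicate. Libraries of a group differed by more than sampling noise (chi-square per degree of freedom 12.3 to 33.1, and 6.15 to 16.5 with counts halved). That spread cannot tell separate mice from technical repeats. Positions, lengths and shared sequence are from GENCODE M21 (GRCm38). Named genes are the members, their partners, and from each list the pair with the lowest adjusted p plus the gene of highest mean CPM, and the 2 nearest profiles of each member; any other gene was named after its values were seen. Members and lists were chosen with earlier results of these data known. Receptor protein sequences were not analysed here.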

Additional observations from a re-analysis of the deposited data

How the results depend on the processing

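Of 79 alternative values of the 6 members, 78 kept their direction and their side of the threshold. The exception was Csf2ra, which had -0.02 without LPS replicate 3 and ranged from -0.02 to 0.75 when single libraries were left out; the cause was not tested. Across alternatives Csf1 ranged from 0.99 to 1.18, Csf3r from 1.01 to 1.41 with a largest adjusted p of 0.034, Csf1r from -3.31 to -3.05 and Csf2rb from -1.06 to -0.59. The fitted log2 fold change of Csf3, 11.52 in the main analysis, ranged from 7.53 with limma to 11.60 and depends on the prior count, so only its bound is given in the results. Genes higher in LPS livers numbered 3372 to 3806 and genes lower 3510 to 4002 across settings.

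With single libraries left out, partner genes that rose numbered 1 to 2, myeloid transcription factors that fell 2 to 4, and other growth factors and receptors that rose 3 to 5. The last were 5 with no filter on low counts and 5 with limma-trend. Whether the repeat numbers in the titles pair the samples is not stated. Correlations of deviations from the group means were -0.000745, 0.104 and 0.0352 for the same number and -0.121 to 0.0741 for different numbers. These few values, from groups of 3, cannot tell whether libraries of the same number shared a day or batch. With the number as a replicate block the log2 fold changes were 1.11 for Csf1, 1.20 for Csf3r, -3.16 for Csf1r, 0.29 for Csf2ra, -0.92 for Csf2rb and 11.52 for Csf3, with the same calls. Depth limits the low genes most: Csf3r had 20 counts in its lowest library, and Csf2, Il3, Il5, Il5ra and Ptprz1 could not be tested.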
